A study of Rattus norvegicus with 6 samples.

Results

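A run of 4 neighbouring loci on rat chromosome 12 was examined, out of 13685 loci with a transcript start or end in the series. The run is labelled as oligoadenylate synthetase loci. Its members were every locus whose starts and ends lay between positions 41155485 and 41369261, as the files number them (no source used here names the genome build). The window had been drawn around loci with low levels in the knockdown libraries. The members were therefore selected on their FPKM in knockdown against control, and that contrast is given below as a description. No locus reached across an edge of the window (0 loci).

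The study asked what SLC2A10, the gene of the glucose transporter GLUT10, does in vascular smooth muscle cells (VSMCs), which form the muscle layer of arteries. RNA was sequenced in 6 libraries, with 2 for interference sequence 3 against SLC2A10, 2 for interference sequence 2 and 2 controls. The sample titles name siRNA, and the paper describes short hairpin RNA delivered by virus, with control virus in the controls. The labels give the genotype as SLC2A10-/- for the libraries of both sequences and as wild type for the controls, and the strain as SD and the tissue as aorta for all 6. The paper describes VSMCs from the aorta of male rats at passage 3, grown in DMEM/F12 with fetal bovine serum. No source used here gives age or time after infection. The extraction protocol names frozen aorta, so it is not settled whether the RNA came from tissue or from cultured cells. The design text of the series names mice, whereas the organism is given as Rattus norvegicus and the paper describes rats. The libraries are called knockdown here as the paper calls them, and the level of SLC2A10 itself was not analysed here. The numbers 3 and 2 of the sequences were read from the sample titles, as was the replicate number. No label says that replicates came from separate cultures, so every p-value covers the spread between libraries alone, and that spread may be technical.

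Oligoadenylate synthetases are enzymes that sense double-stranded RNA, which many viruses make in the cells they infect. On binding it they join ATP into short oligoadenylates, and these switch on RNase L, a nuclease that cuts viral and cellular RNA. Their genes are classical targets of interferon, the signal by which infected cells warn their neighbours. Mice and rats carry several related copies of the gene family side by side.

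The label of the run could not be checked by name. The loci carry Ensembl gene IDs, and 0 of the 4 member IDs, like 0 of the 12224 IDs in the files, were paired with a symbol by the RefSeq gene table used here (assembly GRCr8). That annotation places 10 protein-coding genes with an Oas name next to each other on chromosome 12, in the order Oas1i, Oas1d, Oas1a, Oas1h, Oas1f, Oas1b, Oas1e, Oas1k, Oas3 and Oas2, between Rph3a and Dtx1. Which of them correspond to the 4 loci was not determined, since the builds may differ and no coordinates were converted. The loci are therefore called by their Ensembl IDs, no role is given to any single locus, and no promoter or protein sequence is shown for them. How the authors' pipeline assigned reads that match several related copies is not stated in any source used here, so the split of reads between such copies is uncertain.

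The 4 loci followed one another over the window, with 3 on the plus strand and 1 on the minus strand. ENSRNOG00000047076 spanned 41155485 to 41167505 on the plus strand. ENSRNOG00000001369 spanned 41200692 to 41211909 on the plus strand, 33.2 kb farther on. After a gap of 44.1 kb came ENSRNOG00000033220, at 41256031 to 41266444 on the minus strand. The last locus, ENSRNOG00000049282, lay 74.4 kb beyond it at 41340815 to 41369261 on the plus strand. Between outermost listed events it spanned 28447 bp, and the other 3 spanned 10414 to 12021 bp. No end of ENSRNOG00000033220 was listed, so its lower edge, and with it the 44.1 kb gap, is that of a retained intron. The far edge of ENSRNOG00000049282 rests on an end listed in replicate 1 of the controls alone, at 0.425 FPKM. The lengths of the loci are therefore not ranked. Each locus had a single transcript start in the files, the same in every library that listed it.

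All 4 loci were lower in every knockdown library in which they were listed than in both controls, and 1 of them was not listed in any knockdown library. Levels are in FPKM, the fragments of a transcript scaled for its length and for the size of the library. The level of a locus is the larger of its summed starts and its summed ends, and a locus with neither in a library has no listed level there. In these bulk libraries fewer expressing cells and less RNA per cell cannot be told apart.

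ENSRNOG00000001369 had the highest level of the run in the controls. It had 1.14 and 0.891 FPKM with sequence 3 and 0.357 FPKM in replicate 2 of sequence 2, was not listed in replicate 1 of sequence 2, and had 91.4 and 92.4 FPKM in the controls. The lowest control was 80.3 times the highest knockdown library, while the controls differed from each other by 1.01% of their mean. In the knockdown libraries this locus stood above at most 6.93% of the 10648 tested loci, and in the controls above at least 94.6%.

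ENSRNOG00000033220 came next. Its level was 1.03 and 1.26 FPKM with sequence 3 and 0.479 FPKM in replicate 2 of sequence 2, against 63.2 and 72.7 FPKM in the controls. Replicate 1 of sequence 2 listed neither a start nor an end of this locus, but it did list a retained intron at 0.419 FPKM, so the locus was not free of signal there. The lowest control was 50.1 times the highest knockdown library, and the controls were 13.9% of their mean apart, the widest relative gap between the controls in the run.

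ENSRNOG00000047076 was the only member listed in all 6 libraries. It had 1.04 and 1.07 FPKM with sequence 3, 0.666 and 0.358 FPKM with sequence 2, and 19.6 and 20.5 FPKM in the controls. Its groups therefore stood apart without overlap, with the lowest control 18.4 times the highest knockdown library. The control levels lay above 75.0% and 75.6% of tested loci.

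ENSRNOG00000049282 was the weakest member. It was not listed in any of the 4 knockdown libraries and had 6.47 and 5.82 FPKM in the controls, above 44.2% and 41.5% of tested loci. No fold or log2 difference is given for it against libraries without a listed value, since an unlisted locus can be a failed estimate. The 10648 tested loci include 41 that were listed in both controls and in no knockdown library.

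**Figure D1:**
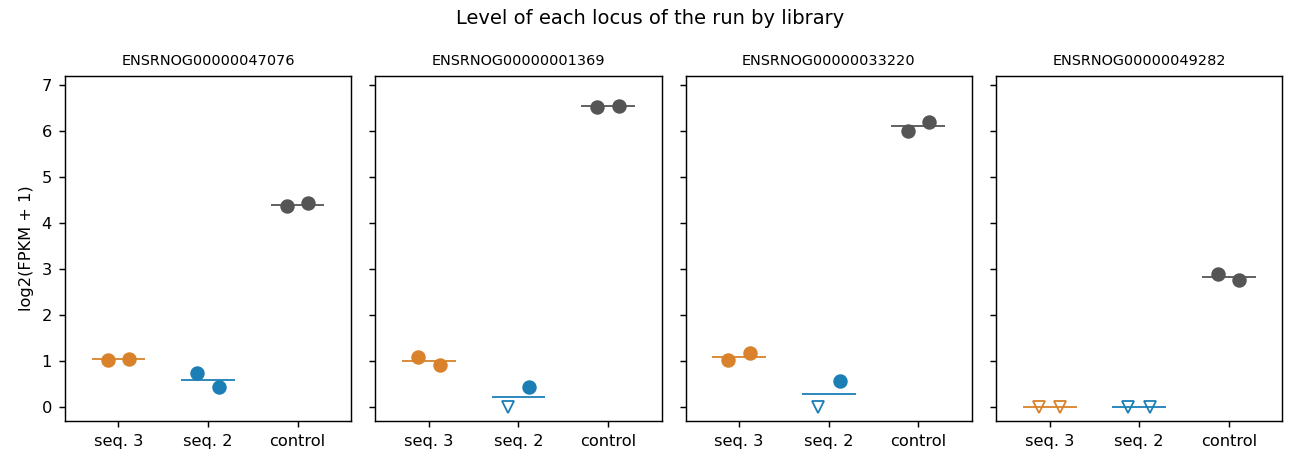
Level of each of the 4 loci as log2(FPKM + 1), with sequence 3, sequence 2 and control from left to right, 1 point per library and a line at the group mean. Open triangles at 0 mark libraries in which the locus was not listed, and in each panel the controls lie above all 4 knockdown libraries.

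In the knockdown libraries the loci kept no common order, but no precision can be given for ranks at levels near 1 FPKM or below. ENSRNOG00000033220 was highest in 2 of them (replicate 2 of sequence 3 and of sequence 2), ENSRNOG00000001369 in replicate 1 of sequence 3, and ENSRNOG00000047076 in replicate 1 of sequence 2, where it was the only one listed. In both controls the order was the same, ENSRNOG00000001369, ENSRNOG00000033220, ENSRNOG00000047076 and ENSRNOG00000049282 from highest to lowest. Their control means were 91.9 ± 0.654, 68.0 ± 6.68, 20.1 ± 0.609 and 6.14 ± 0.463 FPKM (SD, n = 2 each), and no neighbours in this order overlapped. ENSRNOG00000001369 made up 35.5% and 27.6% of the summed level of the run with sequence 3. There the 3 listed loci each held 27.6% to 39.2%. With sequence 2 its share was 29.9% in replicate 2, and it was not listed in replicate 1. In the controls ENSRNOG00000001369 made up 50.6% and 48.3%. The shares in knockdown libraries divide levels near 1 FPKM or below, so they are not read as a change of composition.

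Summed over its members, the run had 3.21 and 3.22 FPKM with sequence 3, 0.666 and 1.19 FPKM with sequence 2, and 181 and 191 FPKM in the controls. It made up at most 0.000984% of the summed level of all loci in a knockdown library, and 0.0606% and 0.0599% in the controls. The totals behind these shares were 308332 to 368014 FPKM in the knockdown libraries and 298386 and 319652 FPKM in the controls.

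On the scale of log2(FPKM + 1), on which the change of low loci is understated, ENSRNOG00000001369 differed from control by -5.53 with sequence 3 and -6.32 with sequence 2. For ENSRNOG00000033220 it was -5.01 with sequence 3 and -5.82 with sequence 2, and for ENSRNOG00000047076 -3.36 with sequence 3 and -3.81 with sequence 2. Both comparisons use the same control libraries. Replicate 1 of sequence 2 had no listed level of ENSRNOG00000001369 or ENSRNOG00000033220 and entered as 0. Their sequence 2 values thus rest on a level listed in replicate 2 alone. Over both sequences the falls of ENSRNOG00000001369, ENSRNOG00000033220 and ENSRNOG00000047076 ranked 10, 17 and 67 among the 10648 tested loci. All 4 loci were tested, and all passed the minimum of 1 FPKM in 2 libraries through the controls, except that ENSRNOG00000047076 and ENSRNOG00000033220 also reached it with sequence 3. By limma, a linear model fitted across all tested loci with unlisted levels set to 0, all 4 were lower at an adjusted p under 0.05, as were 2.86% of tested loci (305 loci, and 119 when either control library was left out). All 4 had every knockdown library below both controls, as did 11.2% of tested loci. Because this contrast chose the members, nothing is read from these counts. The median difference of all tested loci was 0.08.

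With a pseudocount of 0.1 in place of 1 the differences over both sequences were -7.56 for ENSRNOG00000001369, -6.96 for ENSRNOG00000033220 and -4.61 for ENSRNOG00000047076. The size of the falls on a log scale thus depended on the constant added to values near 0.

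The loci on either side did not share the low levels. Before the window, the nearest locus was ENSRNOG00000030124, 199 kb away, with 32.1 and 25.9 FPKM with sequence 3, 31.9 and 34.6 FPKM with sequence 2, and 34.0 and 28.7 FPKM in the controls. Its groups overlapped. After the window, the nearest was ENSRNOG00000001377, 100 kb away, with 15.5 and 16.3 FPKM with sequence 3, 16.5 and 14.4 FPKM with sequence 2, and 13.9 and 14.3 FPKM in the controls. Of the 3 nearest loci on each side, 0 of 6 had every knockdown library below both controls, and the 5 tested ones differed from control by -0.01 to 0.30 on the log2 scale. Since the window was drawn to hold the fallen loci, this contrast across its edges is a description.

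One locus farther out was also low in the knockdown libraries. ENSRNOG00000001351, whose middle lies 453 kb before the run, had 12.4 and 12.9 FPKM with sequence 3, 11.0 and 10.6 FPKM with sequence 2, and 47.8 and 53.3 FPKM in the controls. It was named after its values were seen. In knockdown against control its log2 difference, given as a description, was -2.02 ± 0.0994 (standard error). That was a smaller fall than those of the 3 members with a listed level in knockdown libraries. Tested loci with no such fall lay between it and the run.

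**Figure D2:**
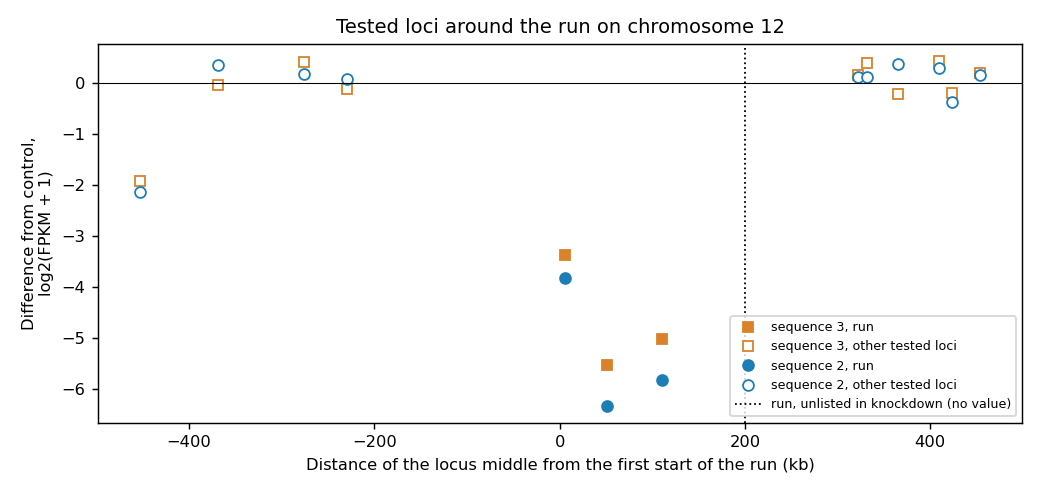
Difference from control in log2(FPKM + 1) for each tested locus around the run, against the distance of its middle from the first start of the run in kb, with squares for sequence 3 and circles for sequence 2. The 3 loci of the run with a listed level in knockdown libraries, filled, lie at -3.36 or below, the dotted line marks the place of ENSRNOG00000049282, which has no value, 9 of the other 10 lie within 0.5 of 0, and the locus at the far left is ENSRNOG00000001351.

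The comparison of the interference sequences with each other was not used to choose the run and was therefore tested. The 3 loci listed with either sequence were higher in both libraries of sequence 3 than in both of sequence 2, but none differed between the sequences at an adjusted p under 0.05. ENSRNOG00000047076 had 1.04 and 1.07 FPKM with sequence 3 against 0.666 and 0.358 FPKM with sequence 2, a log2 difference of 0.45 (95% interval 0.03 to 0.87, adjusted p = 0.734 from limma). For ENSRNOG00000001369 the difference was 0.79 (95% interval 0.32 to 1.26, adjusted p = 0.694 from limma). For ENSRNOG00000033220 it was 0.82 (95% interval 0.26 to 1.37, adjusted p = 0.734 from limma). These intervals draw on a spread shared with the far higher controls, so they give no precision for levels near 1 FPKM. ENSRNOG00000001369 entered the test through its control levels alone. ENSRNOG00000049282 was unlisted in all 4 libraries, so no difference could be measured. Single libraries moved these values. Without replicate 1 of sequence 2, in which ENSRNOG00000001369 and ENSRNOG00000033220 had no listed level and were set to 0, their differences were 0.57 and 0.53, and that of ENSRNOG00000047076 was 0.60. Without replicate 2 of sequence 2 they were 1.01 for ENSRNOG00000001369, 1.10 for ENSRNOG00000033220 and 0.30 for ENSRNOG00000047076. Replicate 2 of sequence 3 listed the fewest transcript starts of all libraries, 12837, and without it the differences were 0.88 for ENSRNOG00000001369, 0.74 for ENSRNOG00000033220 and 0.44 for ENSRNOG00000047076. Adding 0.1 rather than 1 before taking logs gave 2.37 for ENSRNOG00000001369, 2.36 for ENSRNOG00000033220 and 0.97 for ENSRNOG00000047076.

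The count of members called was thus 0 of 4 at an adjusted p under 0.05 by limma, beside 0.0939% of all tested loci (10 loci, 1 without replicate 1 of sequence 2 and 0 without its replicate 2). ENSRNOG00000049282, unlisted in all 4 knockdown libraries, could not count. It and ENSRNOG00000001369 passed the minimum level through the controls alone. At ENSRNOG00000001369 and ENSRNOG00000033220, replicate 1 of sequence 2 entered as 0. Nothing is therefore read from the counts that follow. At an unadjusted p under 0.05 by limma, on the same shared spread, the count was 3 of 4, beside 5.45% of all tested loci. Both libraries of sequence 3 lay above both of sequence 2 at 3 of 4 members, beside 26.4% of all tested loci. The median difference of all tested loci was itself 0.07 in this direction, and of the 1066 tested loci with a mean below 1.5 FPKM in the knockdown libraries and a listed value there, 21.1% had both libraries of sequence 3 above both of sequence 2.

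**Figure D3:**
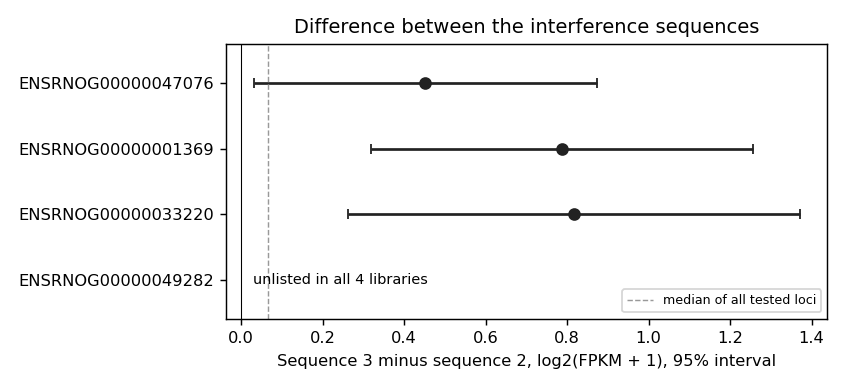
Difference between the sequences, sequence 3 minus sequence 2, in log2(FPKM + 1) for each locus. Bars are the 95% interval from limma before adjustment, from a spread shared with the controls. A dashed line at 0.07 is the median of all tested loci. The 3 listed loci lie between 0.45 and 0.82, and ENSRNOG00000049282 has no value.

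The files also list splicing events, each with the FPKM of the transcripts that carry it. For an exon that can be left out, 1 value counts transcripts with the exon and another those without it. The run had 5 and 6 such events of all kinds with sequence 3, 1 and 4 with sequence 2, and 9 and 13 in the controls. Whether fewer events are listed because levels are near 1 FPKM was not tested, and these numbers are not read as a change of splicing.

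ENSRNOG00000033220 had the most varied transcripts. An exon of 103 bp, at 41263836 to 41263938, was left out of most of them. In the 3 knockdown libraries with a listed level only the form without the exon was listed, at 1.03 and 1.26 FPKM with sequence 3 and 0.479 FPKM in replicate 2 of sequence 2. In the controls that form had 49.9 and 52.3 FPKM and transcripts with the exon had 13.3 and 20.4 FPKM, so that 21.1% and 28.0% of the level carried the exon. With so low a level in the knockdown libraries, whether a form with the exon at the share seen in the controls would be listed is unknown.

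The same locus had variable ends of the next exon along the genome. The form at 41264207 to 41264495 had 1.03 and 1.26 FPKM with sequence 3, 0.479 FPKM in replicate 2 of sequence 2, and 49.9 and 62.1 FPKM in the controls. A shorter form ending at 41264424 was listed in the controls alone, at 13.3 and 5.05 FPKM, and another form starting at 41264244 was listed in replicate 2 of the controls alone, at 5.56 FPKM. A retained intron at 41256031 to 41256080 was the event listed at 0.419 FPKM in replicate 1 of sequence 2. It had 34.8 FPKM in replicate 2 of the controls, 47.9% of the level of the locus, and was not listed in replicate 1 of the controls. The controls thus disagreed about this intron, and no comparison with the knockdown libraries was made from it.

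In ENSRNOG00000001369 the controls disagreed as well. None of the knockdown libraries listed an event of the exon at 41210866 to 41210926, directly before the last one. In replicate 1 of the controls this exon was carried by the whole level of 91.4 FPKM. In replicate 2 of the controls a shorter form at 41210900 to 41210926, of 27 bp in place of 61 bp, had 37.3 FPKM, and transcripts without either form had 55.0 FPKM, so that 40.4% of the level carried the exon. The exon at 41203207 to 41203253, of 47 bp, was left out of every transcript in the 4 libraries that listed it, at 1.14 and 0.891 FPKM with sequence 3 and 91.4 and 92.4 FPKM in the controls.

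In ENSRNOG00000047076 the controls were alike, and an exon of 185 bp at 41161576 to 41161760 varied with sequence 3. Transcripts without this exon had 0.581 FPKM in replicate 1 of sequence 3 and 0.454 FPKM in its replicate 2, where 57.6% of the level carried the exon. With sequence 2, the exon was carried by the whole 0.358 FPKM in replicate 2, and replicate 1 listed no event of the exon. In both controls the whole level carried the exon, 19.6 and 20.5 FPKM. The form without the exon was therefore listed in both libraries of sequence 3 and in no other library, at levels near 0.5 FPKM. The share was not tested, and no precision can be given for it at such levels.

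**Figure D4:**
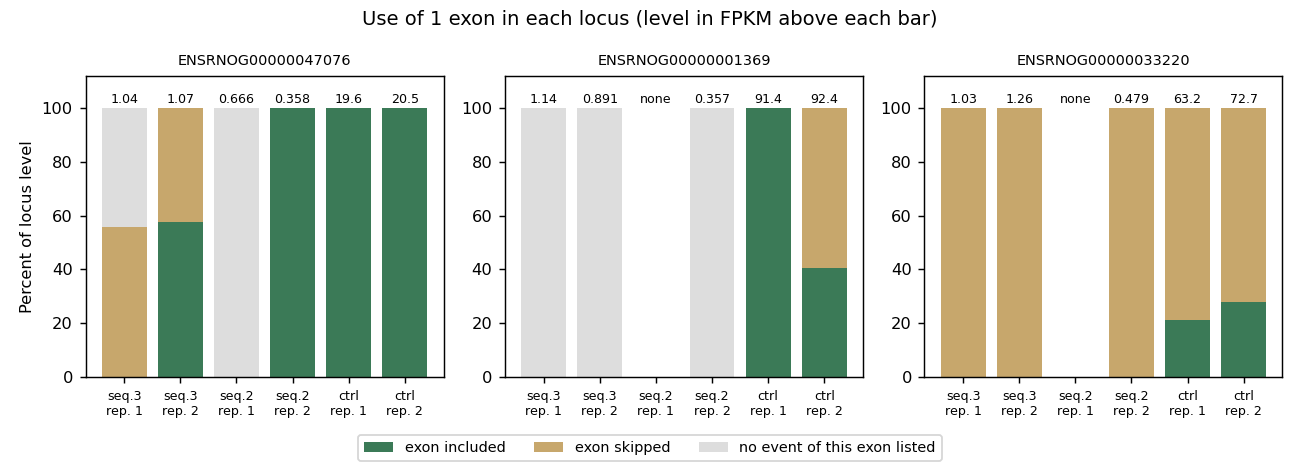
Percent of the level of each locus in transcripts with 1 exon (green), without it (tan) or with no event of it listed (grey), per library, with the locus level in FPKM above each bar. The exon is in all transcripts of ENSRNOG00000047076 in both controls, in 100% and 40.4% of those of ENSRNOG00000001369 in the controls, and in 21.1% and 28.0% of those of ENSRNOG00000033220.

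Transcript starts were listed more often than ends. Starts were listed for 3 loci in each library of sequence 3, for 1 and 3 in those of sequence 2 and for all 4 in each control, and ends for 1 and 0 loci with sequence 3, 0 and 1 with sequence 2, and 3 and 2 in the controls. ENSRNOG00000033220 had no end listed in any library, so its level rests on its start. For ENSRNOG00000049282 the end listed in replicate 1 of the controls had 0.425 FPKM, against 6.47 FPKM at the start. The level of this locus thus rests on its start too.

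The 5 loci elsewhere whose profile over the 6 libraries was most like that of the summed run were found among 10310 tested loci with an Ensembl ID. Likeness was the root mean square difference of log2(FPKM + 1), each profile taken relative to its mean in the controls. ENSRNOG00000017414 on chromosome 1 was nearest, at 0.17, with 8.85 and 8.19 FPKM with sequence 3, 3.19 and 3.40 FPKM with sequence 2, and 473 and 467 FPKM in the controls. It was as near to the run as its own member ENSRNOG00000001369, at 0.18. The next, ENSRNOG00000001187 at 0.29, lies on chromosome 12 as well, at 47444104 to 47456894, outside the run. It had 1.82 and 1.39 FPKM with sequence 3, 0.524 and 0.446 FPKM with sequence 2, and 107 and 109 FPKM in the controls. ENSRNOG00000031743 on chromosome 2 and ENSRNOG00000037198 on chromosome 4 followed at 0.33 each, and ENSRNOG00000036604 on chromosome 1 at 0.51. All 5 were higher in both libraries of sequence 3 than in both of sequence 2, like the 3 listed members, which the measure of likeness in part fixes. The other listed members were farther from the summed run than these, with 0.53 for ENSRNOG00000033220 and 2.04 for ENSRNOG00000047076, whose falls on this scale were smaller. No likeness is given for ENSRNOG00000049282. Likeness over 6 libraries in 3 groups is a description and carries no test.

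Over the whole series, the libraries listed 11564 to 11710 loci in 3 of the knockdown libraries, 11856 in replicate 2 of sequence 2, and 11837 and 11759 in the controls. The median level of tested loci was 7.88 to 8.14 FPKM in the knockdown libraries and 7.89 and 7.83 FPKM in the controls, so the libraries were on like scales. Because the files hold no read counts, the depth behind each value is unknown, and levels near 1 FPKM carry no counting interval.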

How the data were processed

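RNA-seq libraries from material described as rat VSMCs were analysed, 2 for each interference sequence and 2 controls, grouped by their titles. The tables the authors deposited hold FPKM per event (a start, an end or a splicing event of a locus) and no read counts. HISAT2 2.0.1, StringTie 1.0.4 and HTSeq 0.6.1 are among the tools in the submitters' processing notes, which assign them no step. No source used here names the program that listed the events.

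Repeated events were dropped, and a locus without a start or end in a library was set to 0. Levels were compared as log2(FPKM + 1) by limma 3.58.1 (R 4.3.3), using the mean-variance trend, 1 mean per group and Benjamini-Hochberg adjustment over 10648 loci with at least 1 FPKM in 2 libraries. A run of the model on simulated data placed changes only at loci with a higher mean level than any member. It therefore says nothing about how the model performs for these 4 loci. Sums were computed in pandas 2.3.3 under Python 3.11.15.

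The members and lists were chosen with earlier results of these data known. Every member was named, with the 3 nearest loci on each side and the 5 most alike loci. The planned pathway list and cell type markers were not analysed here, because no ID was paired with a symbol. Other scalings, pseudocounts, filters and left-out libraries are given at the end.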

Additional observations from a re-analysis of the deposited data

How the results depend on the processing

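By limma, 0 members differed between the sequences under every alternative run, including the replicate block, with adjusted p from limma between 0.292 and 1. The differences of the 3 listed members stayed above 0 in all of these except with summed ends only, where ENSRNOG00000001369 was 0 and ENSRNOG00000033220 had no value. ENSRNOG00000001369 also had none in a fit of only the 4 knockdown libraries. With a pseudocount of 0.1 they were 0.97 for ENSRNOG00000047076, 2.37 for ENSRNOG00000001369 and 2.36 for ENSRNOG00000033220. Taking the retained intron of ENSRNOG00000033220 as its level in replicate 1 of sequence 2, an alternative chosen after seeing the data, gave 0.56. With unlisted levels set to 0, all 4 members stayed below control in each alternative that gave a value. The members were chosen for low levels in this contrast, so nothing is read from that direction. For ENSRNOG00000049282 it was fixed, since all 4 knockdown libraries entered as 0.

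Over all tested loci, 10 differed between the sequences, 18 with summed starts, 5 with summed ends and 5 with the replicate block, and 0 to 15 when 1 library was left out. In knockdown against control 545 were called, and 164 to 630 when 1 library was left out, with 164 and 181 without replicate 1 or 2 of the controls and 283 and 304 without replicate 1 or 2 of sequence 2. The block gave 387, of which 127 were higher, against 240. Such fits have fewer degrees of freedom and take a lone library to vary as the other groups do. A correlation above 0.1 had been set as the mark of pairing between samples with the same replicate number. Between sequences 3 and 2 their deviations from the group means correlated at -0.0817. The values were 0.178 for sequence 3 with control and -0.0613 for sequence 2 with control. The main fit used no pairing, although the value for sequence 3 with control passed that mark. Whether the samples were paired is thus not settled, and the cause of the changes in these counts was not tested. With the depth unknown, no precision can be given for levels near 1 FPKM.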
